A study of Mus musculus with 6 samples.

Results

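The platelet-derived growth factor (PDGF) family was followed in RNA from mouse aortic plaque through its 4 ligand genes, Pdgfa, Pdgfb, Pdgfc and Pdgfd, and its 2 receptor genes, Pdgfra and Pdgfrb. These 6 genes were taken by symbol from the 24062 symbols of the deposited count table, and all 6 passed the filter on low counts, which kept 15222 genes. The study sequenced bulk RNA from plaque of the aortic arch in 3 ABT263 and 3 vehicle samples. In both groups the animals were C57BL/6 mice with a gene knockout that makes them prone to atherosclerosis, and they ate a diet rich in fat (TD88137) over 12 weeks, followed by 3 weeks on a diet low in fat up to the end. ABT263 mice were injected in the peritoneum with 100 mg/kg of ABT263 (navitoclax) 1 time a day in week 1 of low-fat feeding. Vehicle mice had the same genotype and diets, and the sources used here do not give the make-up of the vehicle, the number of dosing days, or the age and sex of the mice. ABT263 inhibits BCL-2 and its relatives BCL-xL and BCL-w, which protect cells from apoptosis, and it serves as a senolytic, an agent that kills senescent cells. By its title, the series asked whether senescent cells hold back repair by smooth muscle cells of the vessel.

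PDGF ligands are secreted dimers that bind tyrosine kinase receptors on cells of mesenchymal origin. The A and B chains are secreted ready to bind, whereas the C and D chains carry a CUB domain that a protease must remove before they can bind. The alpha receptor binds the A, B and C chains and is typical of fibroblasts and their progenitors, and the beta receptor binds the B and D chains and is typical of smooth muscle cells and pericytes. In the artery wall, PDGF-B from endothelium, platelets and macrophages draws smooth muscle cells into the intima and drives their growth, which is how a lesion gains its fibrous cap, while contractile genes of those cells are turned down.

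The 300-base promoter windows of 3 members are shown because Pdgfa and Pdgfc had the most similar profiles across libraries of any pair in the family and Pdgfra had the largest fold change. Of the 6 genes, 4 had a window in the RefSeq table (build GRCm38.p6), which runs from 250 bases before to 50 bases after an annotated start. Of a gene's starts in that table, the one lying farthest upstream was used. For Pdgfa this window lies inside the gene span given below (138976014 to 138997370, minus strand), not at its 5' end. Capitals mark matches on either strand to 4 motifs, namely the GC box GGGCGG, the TATA box TATAAA, the AP-1 motif TGANTCA and the CArG box, the binding motif of serum response factor. No matches overlapped.
Pdgfa, chr5:138994895-138995194, minus strand: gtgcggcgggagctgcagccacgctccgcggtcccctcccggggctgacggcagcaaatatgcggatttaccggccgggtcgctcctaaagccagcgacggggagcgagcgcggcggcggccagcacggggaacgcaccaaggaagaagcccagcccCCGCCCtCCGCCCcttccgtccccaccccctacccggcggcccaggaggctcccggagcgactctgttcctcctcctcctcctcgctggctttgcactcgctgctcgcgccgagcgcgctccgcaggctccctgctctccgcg
Pdgfc, chr3:81036166-81036465, plus strand: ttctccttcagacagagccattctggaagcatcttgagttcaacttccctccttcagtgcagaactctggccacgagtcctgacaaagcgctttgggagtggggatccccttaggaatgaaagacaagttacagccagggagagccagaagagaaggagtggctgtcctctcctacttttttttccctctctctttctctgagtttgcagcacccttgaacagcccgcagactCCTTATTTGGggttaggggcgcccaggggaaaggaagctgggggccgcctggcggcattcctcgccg
Pdgfra, chr5:75152001-75152300, plus strand: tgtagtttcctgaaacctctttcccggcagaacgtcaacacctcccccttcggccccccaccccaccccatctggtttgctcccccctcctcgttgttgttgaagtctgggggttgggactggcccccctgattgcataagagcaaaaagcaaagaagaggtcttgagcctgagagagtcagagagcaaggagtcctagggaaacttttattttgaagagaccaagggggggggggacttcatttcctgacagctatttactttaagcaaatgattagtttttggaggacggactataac
The Pdgfa window held 2 GC boxes and had a G+C content of 73.3%. The Pdgfc window held 1 CArG box and had a G+C content of 55%. The Pdgfra window held none of the 4 motifs and had a G+C content of 51%. Among 32851 windows of the same length, a GC box occurred in 35.7%, a TATA box in 13.6%, an AP-1 motif in 7.81% and a CArG box in 1.63%. These matches describe letters only, since no binding was measured.

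Library totals ran from 62930547 to 91688075 counts with ABT263 and from 67236568 to 110452098 with vehicle, so the smallest count of any member in a library, 1523 for Pdgfd in vehicle replicate 2, was far above the 3 counts that a count of 0 would allow. Defining markers of plaque cells were present in all 6 libraries. Acta2 (smooth muscle actin) stood at 900.4 to 6134 CPM (counts scaled to library size with the TMM factors of edgeR) with ABT263 and 1137 to 1544 CPM with vehicle, Cd68 (macrophages) at 271 to 771 and 758 to 1168 CPM, Pecam1 (endothelium) at 490 to 1839 and 179.6 to 1584 CPM, and Dpt (fibroblasts) at 34.5 to 537 and 18.7 to 85.3 CPM. ABT263 replicate 2 stood apart by its white adipocyte genes, whose 10 listed genes summed to 5196 CPM against 277 to 491 CPM in the other libraries. Adipoq, the adipocyte hormone adiponectin, was at 356 CPM there and at most 0.51 CPM elsewhere. Vehicle replicate 2 stood apart by its low endothelial genes, which summed to 654 CPM against 1941 to 5581 CPM elsewhere.

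None of the 6 genes passed the test across all genes, and neither did any other gene. By edgeR's quasi-likelihood test, 0 of 15222 genes (0%) had an adjusted p under 0.05, and the smallest was 0.592. Fold changes were positive for 4 of the 6 members and for 50.1% of all genes. At an unadjusted p under 0.05 it listed 2 of the 6 members, Pdgfra with the higher level under ABT263 and Pdgfb with the lower, where 8.38% of all genes tested met that limit (4.70% higher and 3.68% lower with ABT263). Groups did not overlap for 1 of the 6, Pdgfb, where 12.0% of all genes had groups that did not overlap. With so few members these counts are a description. DESeq2 called 153 genes (1.06%) and limma-voom 0 (0%), with 11.4% and 5.62% of genes at an unadjusted p under 0.05, and no member passed by either tool.

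**Figure D1:**
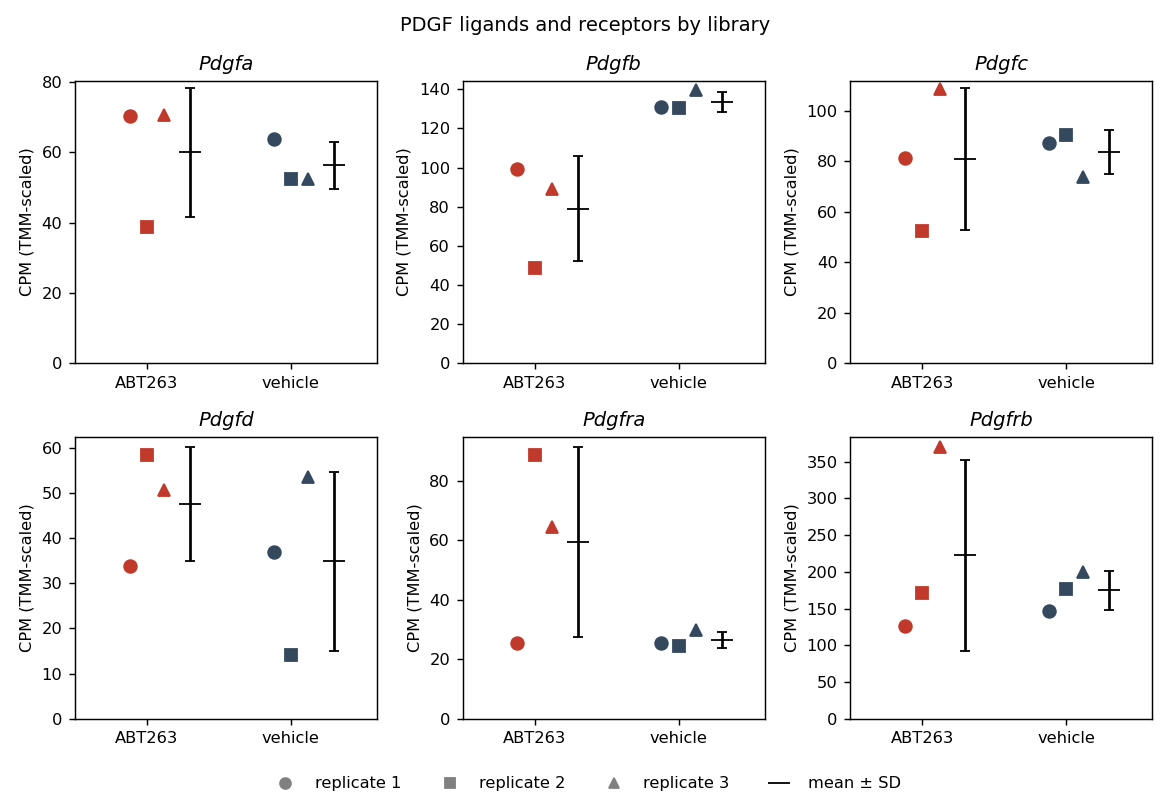
Level of each PDGF ligand and receptor gene in CPM (linear axes from 0) in ABT263 and vehicle libraries, with symbols for replicates and black bars for mean ± SD (n = 3). Pdgfb was below every vehicle library in all 3 ABT263 libraries, and Pdgfra was high in ABT263 replicates 2 and 3 only.

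Pdgfb, the B chain and the ligand that binds both receptors (chromosome 15, 79995874 to 80014977, mm10, minus strand), was the member with separate groups. It stood at 99.1, 48.5 and 89.3 CPM in ABT263 replicates 1 to 3, against 130.8, 130.3 and 139.7 CPM in vehicle replicates 1 to 3. Every ABT263 library lay below every vehicle library, and the vehicle libraries lay close together. The mean was 78.9 ± 26.8 CPM with ABT263 and 133.6 ± 5.29 CPM with vehicle (SD, n = 3 each). The edgeR log2 fold change, ABT263 over vehicle, was -0.76 (SE 0.28, 95% interval -1.44 to -0.081, unadjusted p = 0.0333, adjusted p = 0.592). DESeq2 gave an adjusted p of 0.287 and limma-voom one of 0.834. The fold change kept its sign in every one of the 12 alternative fits, from -0.96 without ABT263 replicate 1 to -0.50 without ABT263 replicate 2. Because the groups did not overlap, leaving out libraries could not be expected to turn it. Its exons overlapped no other annotated gene. In bulk RNA, fewer cells of a type and less RNA per cell cannot be told apart.

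Markers of macrophages and of other leukocytes were lower in the same libraries as Pdgfb. All 12 listed macrophage genes had a negative fold change, and their sum ran from 3795 to 7786 CPM with ABT263 and from 8128 to 15441 CPM with vehicle. Csf1r, the macrophage growth factor receptor, stood at 209.7 to 250.4 CPM with ABT263 and 347 to 434 CPM with vehicle. Taken relative to the mean log2 CPM of the macrophage list, Pdgfb was at -1.70, -1.97 and -1.85 in the ABT263 libraries and at -2.05, -2.15 and -1.42 in the vehicle libraries, so these values overlapped. All 8 measured T cell genes had a negative fold change, and their sum was 40.8 to 147.2 CPM with ABT263 and 173 to 204 CPM with vehicle. All 7 B cell genes did too, with sums of 30.9 to 85.1 CPM with ABT263 and 108 to 187 CPM with vehicle. The 8 neutrophil genes were also all negative, with sums of 49.4 to 135 CPM with ABT263 and 128 to 287 CPM with vehicle, which overlapped. Genes of platelets, cells whose alpha granules carry PDGF protein, were at 30.7 to 82.5 CPM in sum with ABT263 and 54.3 to 213 CPM with vehicle, which overlapped, and all 10 had a negative fold change. Endothelial genes overlapped widely as well, 9 of 11 with a positive fold change, and in vehicle replicate 2, where they were lowest, Pdgfb was not low. Cartilage genes were lower in the same libraries too, so the pattern was not particular to leukocytes. All 9 cartilage genes kept had a negative fold change. The 10 listed summed to 698 to 1235 CPM with ABT263 and 1466 to 2644 CPM with vehicle. The part of any of these cells in the Pdgfb level was not tested.

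Pdgfa, the A chain, which binds the alpha receptor (chromosome 5, 138976014 to 138997370, minus strand), had groups that overlapped and a fold change near 1. It was at 70.5, 38.8 and 70.7 CPM in the ABT263 replicates, against 63.9, 52.5 and 52.5 CPM in the vehicle replicates. ABT263 libraries held both the highest values and the lowest, so the groups overlapped. The log2 fold change was 0.092 (SE 0.27, 95% interval -0.54 to 0.73, adjusted p = 0.960 by edgeR). It turned to -0.043 without ABT263 replicate 1 and to -0.044 without ABT263 replicate 3. The exons of Pdgfa shared 813 bases, 26.1% of their length, with the antisense gene 6330403L08Rik, and the library kit did not mark strand, so the count of Pdgfa is uncertain. That antisense gene is not among the symbols of the deposited counts, so its reads on the shared bases may be counted as Pdgfa.

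The ratio of Pdgfb to Pdgfa within a library, which does not depend on how libraries were scaled, separated the groups without overlap. There were 1.41, 1.25 and 1.26 Pdgfb counts for each Pdgfa count in the ABT263 libraries, against 2.05, 2.48 and 2.66 in the vehicle libraries. On the log2 scale the ratio was 0.38 ± 0.094 with ABT263 and 1.25 ± 0.20 with vehicle (SD, n = 3 each), a difference of -0.87. The exact two-sided permutation p = 0.1 is the smallest that 3 against 3 can give, or 0.15 adjusted over the 3 ratios examined. The difference stayed between -0.98 and -0.79 in the fits that left out 1 library, which could not turn its sign because the groups did not overlap. The ABT263 library with the lowest Pdgfb, replicate 2, also had the lowest Pdgfa, so the spread of the ratio among ABT263 libraries was smaller than that of Pdgfb alone. The uncertain count of Pdgfa applies to this ratio too.

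**Figure D2:**
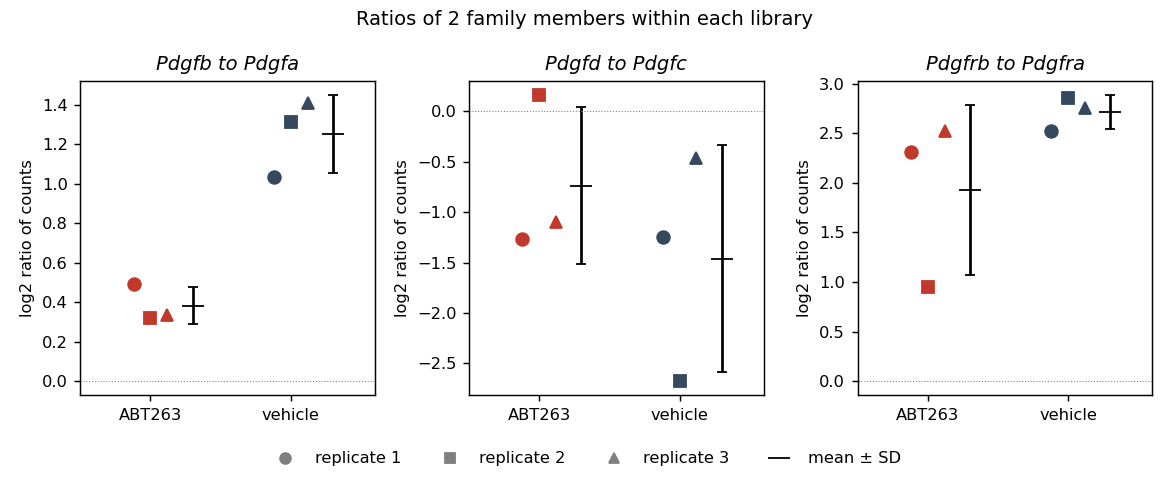
Log2 ratio of the counts of 2 family members within each library, for the ligands secreted active (Pdgfb to Pdgfa), the ligands secreted latent (Pdgfd to Pdgfc) and the receptors (Pdgfrb to Pdgfra), with black bars for mean ± SD (n = 3). The Pdgfb to Pdgfa ratio lay between 0.32 and 0.49 in ABT263 libraries and between 1.03 and 1.41 in vehicle libraries.

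Both CUB-domain ligands had groups that overlapped. Pdgfc, whose product binds the alpha receptor after cleavage (chromosome 3, 81036416 to 81214040, plus strand), was at 81.3, 52.4 and 108.8 CPM in the ABT263 replicates, against 87.3, 90.3 and 73.8 CPM in the vehicle replicates. The ABT263 libraries lay on both sides of the vehicle range. Its log2 fold change was -0.052 (SE 0.28, 95% interval -0.73 to 0.62, adjusted p = 0.982 by edgeR), and its sign turned without ABT263 replicate 2 (0.19), without vehicle replicate 2 (0.0030), without both (0.24) and with total counts as the only scaling (0.024). Antisense Gm16000 shared 2.89% of its exon length. Relative to the macrophage list, Pdgfc was at -1.98, -1.86 and -1.56 in ABT263 libraries and at -2.63, -2.68 and -2.34 in vehicle libraries on the log2 scale, without overlap, the list itself being lower with ABT263.

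Pdgfd, whose product binds the beta receptor after cleavage (chromosome 9, 6168584 to 6378850, plus strand), varied most among vehicle libraries. It was at 33.8, 58.4 and 50.7 CPM in the ABT263 replicates, against 36.9, 14.1 and 53.6 CPM in the vehicle replicates. Vehicle replicate 2 was lower than every other library, and the remaining 5 libraries mixed without regard to group. The coefficient of variation was 26.4% with ABT263 and 56.8% with vehicle. The log2 fold change of 0.45 (SE 0.48, 95% interval -0.69 to 1.59, adjusted p = 0.854 by edgeR) was 0.072 without vehicle replicate 2 and -0.098 without both replicates numbered 2. Endothelial markers were also lowest in vehicle replicate 2. Their sum was highest in ABT263 replicate 1 (5581 CPM), where Pdgfd was at 33.8 CPM. The mean log2 CPM of the contractile smooth muscle list was lowest in vehicle replicate 2 as well (6.18), though its sum was not. The part of these cells in the level of Pdgfd was not tested. The ratio of Pdgfd to Pdgfc was 0.42, 1.12 and 0.47 in ABT263 libraries and 0.42, 0.16 and 0.73 in vehicle libraries (difference of log2 ratios 0.72, exact two-sided permutation p = 0.5, adjusted p = 0.5).

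Pdgfra, the alpha receptor (chromosome 5, 75152292 to 75198215, plus strand), had the largest fold change of the family, carried by 2 of 3 ABT263 libraries. It was at 25.5, 88.95 and 64.4 CPM in the ABT263 replicates, against 25.5, 24.4 and 29.7 CPM in the vehicle replicates. ABT263 replicate 1 was at the vehicle level, and replicates 2 and 3 were above every vehicle library, so the groups overlapped. The mean was 59.6 ± 31.99 CPM with ABT263 and 26.5 ± 2.80 CPM with vehicle (SD, n = 3 each). The log2 fold change was 1.17 (SE 0.43, 95% interval 0.14 to 2.19, unadjusted p = 0.0313, adjusted p = 0.592 by edgeR), which is 2.25-fold. DESeq2 gave an adjusted p of 0.227 and limma-voom one of 0.834. Without ABT263 replicate 2 the log2 fold change was 0.77, and without both replicates numbered 2 it was 0.70, while without ABT263 replicate 1 it was 1.53. Antisense Gm42802 shared 4.55% of its exon length.

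Fibroblast and contractile smooth muscle markers were high in the libraries that were high in Pdgfra. The sum of the fibroblast genes was also above every vehicle library in ABT263 replicate 1, where Pdgfra was at the vehicle level. All 12 listed fibroblast genes had a positive fold change, and their sum was 4762, 8356 and 6993 CPM in the ABT263 replicates, against 3149, 4421 and 3290 CPM in the vehicle replicates. Of the 12, 4 lay above every vehicle library in ABT263 replicate 1, 10 in replicate 2 and 9 in replicate 3. Below every vehicle library lay 2, 1 and 1 of them. Serpinf1 was positive through replicate 2 alone, at 38.9, 181.7 and 48.2 CPM with ABT263 against 59.2 to 62.4 CPM with vehicle. The share of all genes beyond the vehicle range in each library was not computed. Relative to the mean log2 CPM of the fibroblast list, Pdgfra was at -1.11, -2.00 and -0.23 in ABT263 libraries and at -0.51, -0.94 and -0.80 in vehicle libraries, with no separation of the groups. Contractile smooth muscle genes summed to 2906, 18067 and 11344 CPM in the ABT263 replicates and to 3160 to 4311 CPM in the vehicle replicates, at the vehicle level in ABT263 replicate 1 and high in replicates 2 and 3 like Pdgfra. White adipocyte genes were high in ABT263 replicate 2, as given above, and skeletal muscle genes in replicate 3 (48.1 CPM in sum against 5.25 to 10.7 CPM in the others). The part of these tissues in the Pdgfra level was not tested.

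Pdgfrb, the beta receptor (chromosome 18, 61045150 to 61085061, plus strand), was high in 1 ABT263 library. It was at 126, 171 and 370.4 CPM in the ABT263 replicates, against 146.7, 177 and 200.04 CPM in the vehicle replicates. ABT263 replicate 3 was above every vehicle library, and ABT263 replicate 1 was below them all. The log2 fold change was 0.35 (SE 0.41, 95% interval -0.64 to 1.34, adjusted p = 0.872 by edgeR), and without ABT263 replicate 3 it was -0.23. Contractile smooth muscle genes, all 13 with a positive fold change, were highest in ABT263 replicate 2, where Pdgfrb was within the vehicle range. Relative to the pericyte and mural list, Pdgfrb was at 1.74, 1.34 and 2.25 in ABT263 libraries. In vehicle libraries it was at 2.01, 2.34 and 2.18, so these values overlapped. Against the contractile smooth muscle list, Pdgfrb was at most 0.60 in ABT263 libraries and at least 0.65 in vehicle libraries, without overlap. The difference of these means was -1.25, the contractile list itself being highest in ABT263 replicates 2 and 3. The part of these cells in the Pdgfrb level was not tested.

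The balance of the receptors leaned less to the beta receptor in ABT263 replicate 2 than in any other library. There were 4.95, 1.93 and 5.75 Pdgfrb counts per Pdgfra count in the ABT263 replicates, against 5.75, 7.26 and 6.73 in the vehicle replicates. ABT263 replicate 3 and vehicle replicate 1 differed only in the fourth digit, so the groups touched. The log2 ratio was 1.93 ± 0.86 with ABT263 and 2.71 ± 0.17 with vehicle (SD, n = 3 each), a difference of -0.79 (exact two-sided permutation p = 0.1, the smallest possible, adjusted p = 0.15). Without ABT263 replicate 2 the difference was -0.30, and with a pseudocount of 5 counts in place of 0.5 the p was 0.2.

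**Figure D3:**
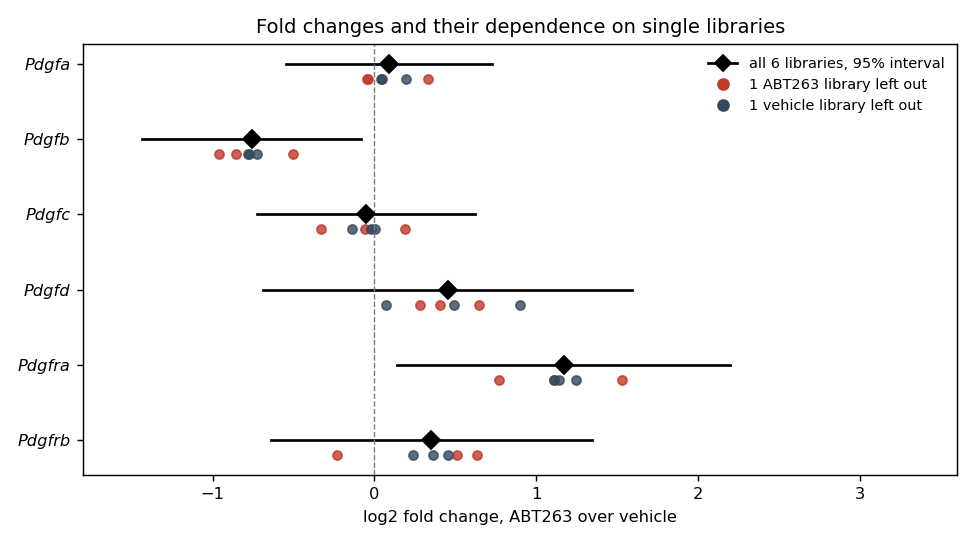
Log2 fold change (ABT263 over vehicle) of each member by edgeR, with diamonds and lines for all 6 libraries and the 95% interval, and dots for the fits that left out 1 library. Dots of Pdgfb stayed below 0 and those of Pdgfra and Pdgfd above it, while those of Pdgfa, Pdgfc and Pdgfrb lay on both sides.

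Levels of different members were compared as RPKM, which is CPM divided by exon length in kilobases, on the length of all annotated exons joined. With ABT263 the order of mean RPKM was Pdgfrb (40.6 ± 23.7), Pdgfa (19.2 ± 5.89), Pdgfb (18.97 ± 6.45), Pdgfc (15.9 ± 5.54), Pdgfd (15.1 ± 3.99) and Pdgfra (5.95 ± 3.19), and with vehicle it was Pdgfb (32.1 ± 1.27), Pdgfrb (31.9 ± 4.89), Pdgfa (18.1 ± 2.12), Pdgfc (16.5 ± 1.72), Pdgfd (11.1 ± 6.28) and Pdgfra (2.65 ± 0.28) (SD, n = 3 each). In ABT263 libraries the 4 ligands overlapped one another, and Pdgfrb overlapped Pdgfb. In vehicle libraries Pdgfb and Pdgfrb overlapped, as did Pdgfa, Pdgfc and Pdgfd. Pdgfra was lowest in all 6 libraries. The order of the means was the same on the length of the longest coding transcript, but the overlaps were not. On that length, in vehicle libraries, Pdgfb (44.3 to 47.5) lay above Pdgfrb (27.0 to 36.9), and Pdgfd (4.51 to 17.1) below Pdgfa and Pdgfc. Of the summed ligand RPKM on joined exons, Pdgfb made up 32.6%, 22.0% and 26.3% in the ABT263 replicates, against 38.9%, 44.5% and 41.0% in the vehicle replicates, which did not overlap. Pdgfd made up 14.7%, 35.0% and 19.7% with ABT263 and 14.5%, 6.37% and 20.7% with vehicle. The 4 ligands together stood at 2.86, 1.32 and 1.10 times the 2 receptors in ABT263 libraries and at 2.75, 2.02 and 2.07 times in vehicle libraries.

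**Figure D4:**
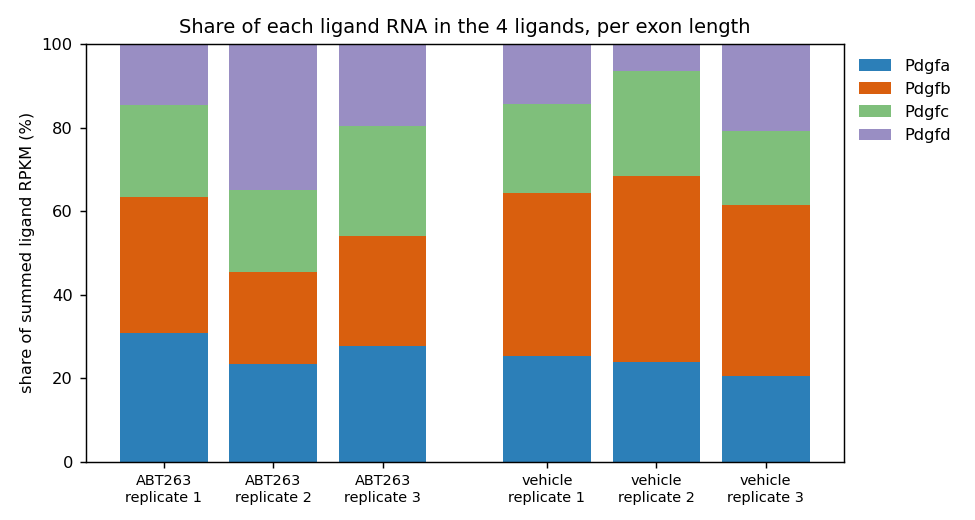
Share of each ligand in the summed RPKM of the 4 ligands, as stacked bars for each library (percent). The Pdgfb share was at most 32.6% in ABT263 libraries and at least 38.9% in vehicle libraries, and the Pdgfd share was largest in ABT263 replicate 2 (35.0%).

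Likeness of profiles was measured as the root mean square distance between log2 CPM values centred over the 6 libraries, given as a description. Pdgfa and Pdgfc were the closest pair of members (0.18), and Pdgfb and Pdgfra the farthest (1.22). Among 11803 other genes, those nearest to Pdgfa were Calr, Pdia3 and Dnajb11, which encode chaperones of the endoplasmic reticulum (0.087 to 0.096). Those nearest to Pdgfb were Ptprc, the leukocyte antigen CD45, Pmaip1, the pro-apoptotic protein NOXA, and Amz1, a metallopeptidase (0.11 to 0.13). Ptprc was at 179, 106 and 187 CPM in the ABT263 replicates, against 279, 243 and 258 CPM in the vehicle replicates. The nearest to Pdgfc were Ugt1a7c, a glucuronosyltransferase that shares exons with other Ugt1a genes and so has an uncertain count, Irak2, a kinase of Toll-like receptor signalling, and Mms22l, a DNA repair protein (0.078 to 0.11). The nearest to Pdgfd were Cdc42bpa, a kinase that acts with CDC42, Amot (angiomotin) and Stox2 (0.052 to 0.089).

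The 2 receptors were not each other's nearest member. Pdgfrb was nearer to Pdgfc (0.45) and Pdgfa (0.53) than to Pdgfra (0.64), and Pdgfra was nearest to Pdgfd (0.62). Among the other genes nearest to Pdgfra were Fgf1, a fibroblast growth factor (0.060), and Fhl1, a LIM-domain protein of muscle (0.095). Fgf1 was at 16.2, 61.1 and 44.9 CPM in the ABT263 replicates, against 16.2, 15.5 and 18.7 CPM in the vehicle replicates. The nearest to Pdgfrb were Col6a1, a chain of collagen VI, Plod2, a collagen lysyl hydroxylase, and Lrrc75b (0.15 to 0.17). Col6a1 was at 294, 309.8 and 717 CPM in the ABT263 replicates, against 273, 325 and 453 CPM in the vehicle replicates.

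**Figure D5:**
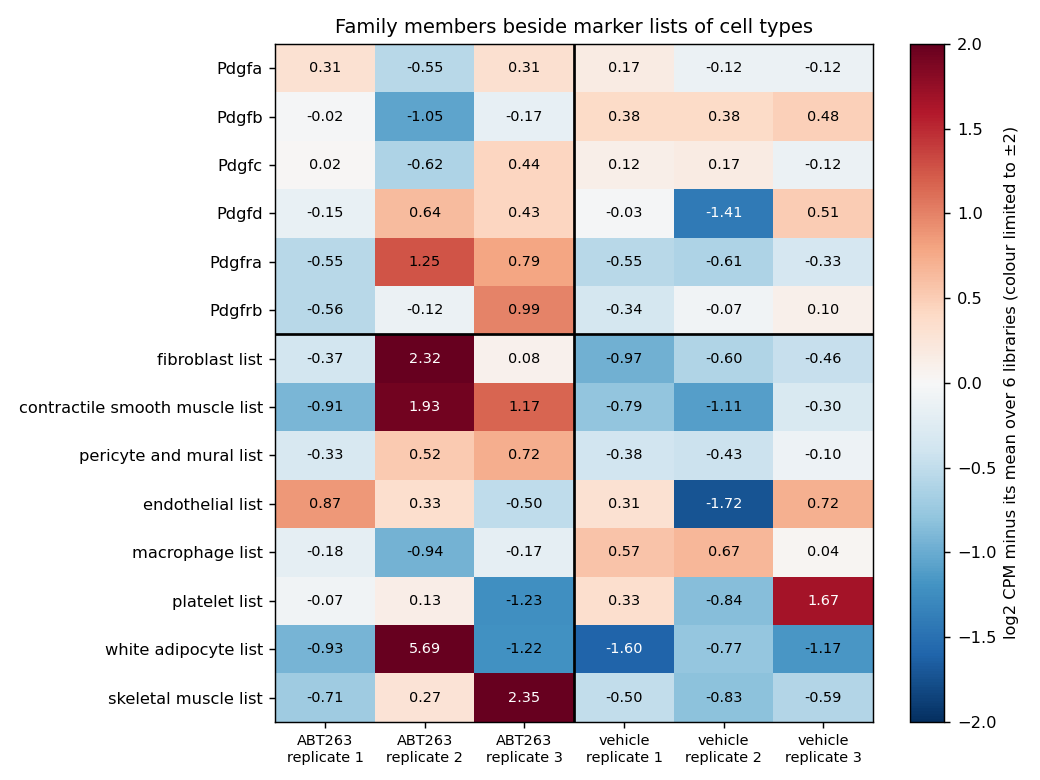
Log2 CPM of each family member and mean log2 CPM of marker lists, each minus its mean over the 6 libraries, with colour limited to ±2. Pdgfb and the macrophage list were lower in ABT263 than in vehicle libraries, and Pdgfra and the contractile smooth muscle list were high in ABT263 replicates 2 and 3.

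Proteins that act on the ligands or bind beside the receptors differed in direction. Of 13 listed, 11 were kept, 3 had a positive fold change and 8 a negative one, none passed, and the median log2 fold change was -0.15, where it was 0.00080 over all genes. Plat, the tissue plasminogen activator that cleaves PDGF-C, was at 34.3, 102 and 42.6 CPM in the ABT263 replicates, against 29.2, 13.5 and 28.7 CPM in the vehicle replicates (log2 fold change 1.33, SE 0.50, adjusted p = 0.592 by edgeR). Its groups did not overlap, and it was highest in ABT263 replicate 2. Plau, the urokinase that can activate PDGF-D, had a log2 fold change of -0.75, Pcsk5, a proprotein convertase, 0.89, and Cspg4, the proteoglycan NG2 of pericytes, 0.68. Plg and A2m were too low to be tested.

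Genes of receptor signalling had a median fold change near that of all genes. All 31 listed were kept, with 16 positive and 15 negative fold changes, a median of 0.019, and none past the threshold. Grb2, the adaptor that links receptors to RAS, was at 171, 122 and 169 CPM in the ABT263 replicates, against 263, 225 and 203 CPM in the vehicle replicates (log2 fold change -0.58, SE 0.22, adjusted p = 0.592 by edgeR). Src, a kinase recruited to the active receptor, had -0.43, Fyn, another of that family, -0.31, and Ptpn11, the phosphatase SHP2, 0.56. Groups did not overlap for 2 of the 31, Grb2 and Src (6.45%, against 12.0% of all genes).

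Early genes that PDGF can induce were divided as evenly. Of 20, 10 had a positive and 10 a negative fold change, with a median of 0.028 and none past the threshold. Spry4, a feedback inhibitor of receptor tyrosine kinases, was at 9.26, 12.6 and 14.3 CPM in the ABT263 replicates, against 7.12, 4.50 and 7.87 CPM in the vehicle replicates (log2 fold change 0.89, SE 0.31, adjusted p = 0.592 by edgeR). Klf4, a factor of smooth muscle phenotype switching, had 0.67, Fosb 1.01 and Spry2, a relative of Spry4, 0.38. Groups did not overlap for 3 of the 20 (15%, against 12.0% of all genes), Spry4, Klf4 and Spry2, each higher with ABT263.

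Among VEGF relatives of the ligands and the other class III receptors, 11 of 15 had a positive fold change and 4 a negative one, where 50.1% of all genes were positive. The median was 0.40 and none was past the threshold by edgeR. In ABT263 replicate 2, 9 of the 15 lay above every vehicle library, against 4 in replicate 1 and 3 in replicate 3. Below every vehicle library lay 2, 1 and 3 of them in ABT263 replicates 1 to 3. These counts are a description, since the share of all genes beyond the vehicle range was not computed. Csf1r, which is of the same receptor class as Pdgfra and Pdgfrb, had a log2 fold change of -0.71 (SE 0.20, adjusted p = 0.592 by edgeR, and 0.0348 by DESeq2). This was the 1 call of DESeq2 in these 4 lists, where that tool called 1.06% of all genes. Csf1, the gene of a Csf1r ligand, was at 136, 119 and 123 CPM in the ABT263 replicates, against 95.7, 89.0 and 101 CPM in the vehicle replicates (log2 fold change 0.40), and these groups did not overlap. Vegfa stood at 84.8, 74.1 and 19.0 CPM with ABT263 and at 22.5, 19.9 and 30.6 CPM with vehicle, high in replicates 1 and 2 of the ABT263 group. Vegfd, listed under its older symbol Figf, had a log2 fold change of 1.66 and was highest in ABT263 replicate 2 (21.7 CPM against 2.63 to 4.22 CPM elsewhere).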

How the data were processed

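RNA came from RNeasy Micro columns and libraries from the TruSeq RNA kit v2, per the labels' protocols, which does not mark strand. The authors deposited raw counts of reads per gene symbol. The submitters' processing notes name build mm10, TopHat2 2.0.14, Bowtie2 2.2.6, featureCounts 1.4.6 and Subread without roles. The sources used here do not give the annotation or the rule for shared reads. Groups came from sample titles, and replicate numbers only name samples. Whether each sample is 1 animal is not stated, so p-values measure the spread between samples, which may be technical.

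In R 4.3.3, genes were kept by filterByExpr (minimum count 10, minimum total 15) and scaled by TMM. All 15222 genes were fitted with edgeR 4.0.16 (glmQLFit, group alone, 4 residual degrees of freedom), with Benjamini-Hochberg adjustment over all of them at a threshold of 0.05. The standard error is the absolute log2 fold change over the square root of F. DESeq2 1.42.0 and limma-voom 3.58.1 ran beside it. The fit was checked on simulated counts, where at this threshold it missed nearly all 2-fold changes and most 4-fold ones. CPM are TMM-scaled. Positions and exon lengths came from GENCODE M21 (GRCm38, the assembly of mm10). Log2 CPM had a prior count of 2. Ratios within a library had a pseudocount of 0.5 counts. Named genes were the 6 members, the 3 nearest to each in profile (mean log2 CPM 1 or more, no clone or predicted-gene names), the 4 of smallest p in each of 4 pathway lists, and the first 2 of a marker list where a result or library turned on them. Serpinf1 was named outside these rules for its values, as were listed genes too low to be tested and genes sharing exons with a member. The members and lists were chosen with earlier results of these data known. Of the genes these rules select, 1 is not reported here, nor is the knocked-out gene.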

Additional observations from a re-analysis of the deposited data

How the results depend on the processing

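Each log2 fold change was recomputed under 12 alternatives and each ratio under 8. No member passed the threshold in any of them, by any tool. The count of genes called was 0 by edgeR in each fit and 153 with DESeq2, for which the cause was not tested. Pdgfb, Pdgfra and the ratios of Pdgfb to Pdgfa and of Pdgfrb to Pdgfra kept their direction in all alternatives. For Pdgfb and these ratios, whose groups did not overlap or only touched, leaving out libraries could not be expected to turn it. Pdgfa was -0.043 without ABT263 replicate 1 and -0.044 without ABT263 replicate 3. Pdgfc was 0.024 with total counts alone, 0.19 without ABT263 replicate 2, 0.0030 without vehicle replicate 2 and 0.24 without both. Pdgfrb was -0.23 without ABT263 replicate 3. Without both replicates numbered 2, Pdgfd was -0.098 and the difference of the log2 ratio of Pdgfd to Pdgfc was -0.33. Leaving out 1 library at a time gave -0.044 to 0.33 for Pdgfa, -0.96 to -0.50 for Pdgfb, -0.33 to 0.19 for Pdgfc, 0.072 to 0.90 for Pdgfd, 0.77 to 1.53 for Pdgfra and -0.23 to 0.63 for Pdgfrb. The ratio differences ran from -0.98 to -0.79 (Pdgfb to Pdgfa), 0.12 to 1.22 (Pdgfd to Pdgfc) and -1.09 to -0.30 (Pdgfrb to Pdgfra). No paired analysis was possible because the labels give the samples no shared replicate numbers. No member had fewer than 1523 counts in a library, so the spread between libraries, not depth, sets the width of the intervals.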
